A study of Mus musculus with 2 samples.

Results

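The genes described here are 9 stress hormone genes of the mouse: the glucocorticoid receptor Nr3c1, the beta-1 adrenergic receptor Adrb1, and Fkbp5, Tsc22d3, Sgk1, Zbtb16, Klf9, Dusp1 and Errfi1, which glucocorticoids induce. They were taken by gene symbol, and all 9 were present among the 35602 symbols of the count table. RNA came from breast tumours of mice in 2 groups. The first group received a PD-1 inhibitor into the peritoneal cavity together with acupuncture, and the second received the PD-1 inhibitor alone, so that blockade of PD-1, a receptor that restrains activated T cells, was common to both. None of the sources used here gives the strain, age, tumour model, acupuncture points, doses or time of sampling. Each group was represented by 1 messenger RNA library, of 60752043 counts with acupuncture and 105728292 with the PD-1 inhibitor alone. With 1 library a group there is no replicate error to set a difference against, so no p-values are given, and every interval is a 95% interval of counting error only. Whether a library stands for 1 tumour or for a pool is not stated.

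Glucocorticoids (corticosterone in the mouse) and catecholamines are the hormones of the adrenal stress response. The glucocorticoid receptor waits in the cytoplasm in a complex with HSP90 and immunophilins, moves to the nucleus when it binds hormone, and there binds the glucocorticoid response element (GRE), a palindrome of hexamers, at genes that it induces. Beta-adrenergic receptors act through the stimulatory G protein, cyclic AMP and protein kinase A, which activates transcription factors at the cyclic AMP response element (CRE). In tumours both hormone systems are known to restrain T cell and dendritic cell responses.

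Expression was split among the glucocorticoid-induced genes and did not move as a block. Of the 7 induced genes, Tsc22d3, Sgk1 and Dusp1 were higher in the acupuncture library and Zbtb16, Klf9, Fkbp5 and Errfi1 were lower, although Errfi1 turned higher, at a log2 ratio of 0.21, when libraries were scaled to epithelial markers. Nr3c1 was 1.28-fold higher, and Adrb1 had few counts in both libraries, 27 with acupuncture and 25 without it. A gene was listed when it differed by 2-fold or more and its interval left out 1. By this rule none of the 9 genes was listed as higher and only Zbtb16 as lower, against 9.21% and 4.90% of the 18687 genes tested, those with 20 or more counts over both libraries (14.1% in either direction). Intervals excluded 1 above it for 4 genes and below it for 4, where 35.1% and 34.8% of tested genes did so (69.9% in either direction). The median log2 ratio of the 9 genes was 0.23, beside 0.0003 for all tested genes. Levels are CPM over library sizes scaled by TMM, a trimmed mean of gene ratios, and folds and ratios are of CPM with acupuncture over CPM with the PD-1 inhibitor alone. In bulk tumour RNA, fewer cells of a type and less RNA per cell cannot be told apart.

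**Figure D1:**
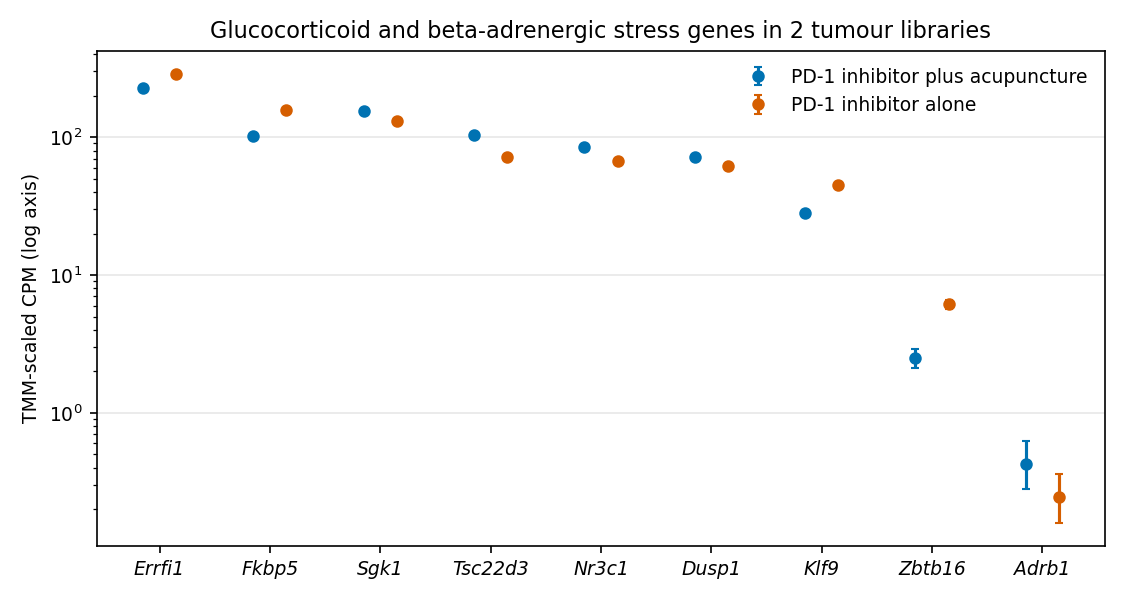
Level of each stress gene in each library, in TMM-scaled CPM on a log axis, with exact Poisson 95% intervals, 1 library per group. Errfi1 had the highest CPM, at 228 CPM with acupuncture and 288 CPM without it, and Adrb1 the lowest, at 0.429 CPM with acupuncture and 0.245 CPM without it.

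Nr3c1, which encodes the glucocorticoid receptor, had 5364 counts and 85.3 CPM (exact Poisson interval 83.0 to 87.6) with acupuncture, against 6824 counts and 66.8 CPM (65.3 to 68.4) with the PD-1 inhibitor alone. The acupuncture library was thus the higher, by 1.28-fold (1.23 to 1.32), and 76.3% of tested genes had a lower or equal log2 ratio. Adrb1, the receptor through which noradrenaline drives the heart and which many tissues carry at low levels, had 27 counts and 0.429 CPM (0.283 to 0.624) with acupuncture, against 25 counts and 0.245 CPM (0.158 to 0.362) with the PD-1 inhibitor alone. Its ratio of 1.75 had an interval from 0.979 to 3.15, so that neither no difference nor a 3-fold one was outside counting error, and the direction was not resolved at this depth.

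Fkbp5 encodes FKBP51, an immunophilin of the receptor complex that lowers the receptor's affinity for hormone and closes a feedback loop, and its transcript is widely used as a readout of glucocorticoid action. It had 6410 counts and 102 CPM (99.4 to 104) with acupuncture, against 16099 counts and 158 CPM (155 to 160.2) with the PD-1 inhibitor alone. The acupuncture library was lower by 1.55-fold (1.504 to 1.59), which placed Fkbp5 at percentile 10.7 of the log2 ratios of tested genes. Under the epithelial scaling the ratio was 0.945, still below 1. The promoter window of Fkbp5 is shown because this gene had the highest level per length of those that were lower under every scaling and because the window held none of the motif letters searched. It lies at chr17:28486100-28486399 on the minus strand of GRCm38.p6 and runs, like every window here, from 250 bases before to 50 bases after a RefSeq transcript start.
Fkbp5 promoter: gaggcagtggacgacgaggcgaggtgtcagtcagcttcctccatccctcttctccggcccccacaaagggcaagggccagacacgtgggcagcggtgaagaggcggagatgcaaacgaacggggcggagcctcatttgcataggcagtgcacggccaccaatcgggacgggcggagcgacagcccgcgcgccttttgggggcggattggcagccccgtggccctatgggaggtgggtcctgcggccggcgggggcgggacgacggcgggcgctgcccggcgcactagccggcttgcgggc
The letters searched were the GRE hexamer AGAACA, the palindromic GRE (that hexamer, 3 bases of any kind, then TGTTCT), the full CRE TGACGTCA and its pentamer TGACG, each on both strands, with the shorter letters also found inside the longer ones. Among 32851 RefSeq windows of the mouse, 0.00913% held the palindromic GRE, 19.0% the GRE hexamer, 1.79% the full CRE and 20.8% the CRE pentamer. The absence of these letters from 300 bases says nothing of binding elsewhere in the gene.

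Tsc22d3 and Dusp1 are induced genes with a part in the anti-inflammatory action of glucocorticoids, and both were higher with acupuncture. Of 31 other induced genes tested, intervals lay wholly above 1 for 11 and wholly below it for 17. Anxa1 and Il1r2, described below, were among the lower ones. Tsc22d3 encodes GILZ, a leucine zipper protein that binds NF-kappa-B and AP-1. It had 6507 counts and 103 CPM (101 to 106) with acupuncture, against 7299 counts and 71.5 CPM (69.9 to 73.2) with the PD-1 inhibitor alone, a ratio of 1.45 (1.40 to 1.496). Tsc22d3 had the highest ratio of the 9 genes after Adrb1, at percentile 82.8 of tested genes, and it passed 2-fold only under the epithelial scaling, at a ratio of 2.12. T and B cells express Tsc22d3 abundantly, and all 8 T cell markers and all 6 B cell markers examined were at least 2-fold higher in the same library. Their summed levels were 121 and 96.0 CPM with acupuncture, against 21.2 and 1.57 CPM without acupuncture, and their part in the ratio of Tsc22d3 was not tested.

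Dusp1 encodes MKP-1, a phosphatase that switches off p38 and JNK. It had 4535 counts and 72.1 CPM (70.0 to 74.2) with acupuncture, against 6277 counts and 61.5 CPM (60.0 to 63.0) with the PD-1 inhibitor alone, a ratio of 1.17 (1.13 to 1.22). Dusp1 is also an early-response gene that handling of tissue can induce. Of 7 such genes Fos and Fosb were listed as higher, Ier2 as lower, and the other 4 lay between. The median log2 ratio of the 7 was 0.29, with intervals wholly above 1 for 4 and wholly below it for 3. Their summed level was 625 CPM with acupuncture and 786 CPM with the PD-1 inhibitor alone. Of these sums Junb held 209.7 CPM with acupuncture and 414 CPM without it. Exons of Dusp1 overlap those of Ergic1 on the opposite strand in GENCODE release M21, and Ergic1 had 6587 counts with acupuncture and 13138 with the PD-1 inhibitor alone. Since no source used here gives the strand setting of the counting, reads in the overlap cannot be assigned with certainty. No other gene of the 9 shared exonic bases with an annotated neighbour.

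Sgk1 and Errfi1 encode regulators of kinase signalling. Sgk1, the serum- and glucocorticoid-regulated kinase of ion transport and cell survival, had 9784 counts and 156 CPM (152 to 159) with acupuncture, against 13385 counts and 131 CPM (129 to 133) with the PD-1 inhibitor alone. The ratio was 1.19 (1.16 to 1.22), near that of Dusp1 and below that of Nr3c1. Errfi1 encodes MIG6, which binds and inhibits receptors of the EGF receptor family and is induced both by glucocorticoids and by EGF signalling. It had 14351 counts and 228 CPM (224 to 232) with acupuncture, against 29366 counts and 288 CPM (284 to 291) with the PD-1 inhibitor alone. Errfi1 was thus 1.26-fold lower (1.24 to 1.29) by TMM and 1.16-fold higher with libraries scaled to epithelial markers, so its direction depended on the scaling. Of 12 epithelial markers 3 were listed as lower and none as higher, with summed levels of 3054 CPM with acupuncture and 4437 CPM without acupuncture, and the part of epithelial content in the ratio of Errfi1 was not tested.

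Promoter windows that hold full response elements are shown next, with all motif letters in capitals. They were shown because these are the only ones of the 15 windows with an exact palindromic GRE or a full CRE. RefSeq windows of 7 of the 9 genes were used, 15 in all, and Nr3c1 and Zbtb16 are named only.
Sgk1 promoter, chr10:21993640-21993939, plus strand: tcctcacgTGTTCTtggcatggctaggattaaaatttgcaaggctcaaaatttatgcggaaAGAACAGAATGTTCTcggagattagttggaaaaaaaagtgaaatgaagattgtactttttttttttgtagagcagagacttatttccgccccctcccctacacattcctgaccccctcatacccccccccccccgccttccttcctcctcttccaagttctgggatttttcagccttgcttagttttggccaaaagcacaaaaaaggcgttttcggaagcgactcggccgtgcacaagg
Dusp1 promoter, chr17:26508423-26508722, minus strand: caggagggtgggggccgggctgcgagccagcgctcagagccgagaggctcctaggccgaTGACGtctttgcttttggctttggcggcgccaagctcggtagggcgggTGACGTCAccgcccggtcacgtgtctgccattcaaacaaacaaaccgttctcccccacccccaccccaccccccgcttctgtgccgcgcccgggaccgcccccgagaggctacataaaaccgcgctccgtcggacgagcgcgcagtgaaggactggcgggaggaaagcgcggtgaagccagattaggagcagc
Errfi1 promoter, chr4:150854820-150855119, plus strand: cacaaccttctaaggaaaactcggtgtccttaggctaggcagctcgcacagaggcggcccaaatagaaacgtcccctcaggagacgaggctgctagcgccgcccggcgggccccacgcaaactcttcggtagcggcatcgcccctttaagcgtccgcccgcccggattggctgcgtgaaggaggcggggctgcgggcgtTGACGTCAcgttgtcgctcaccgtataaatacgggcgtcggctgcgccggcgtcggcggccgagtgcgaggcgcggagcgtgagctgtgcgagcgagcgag
The Sgk1 window, 1 of 6 for this gene, holds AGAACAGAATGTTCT, a palindromic GRE with no mismatch in its 12 fixed bases, starting 189 bases before the transcript start. Only 3 windows of 32851 held such letters. A further GRE hexamer lies 242 bases before that start. The Dusp1 window holds a full CRE that starts 143 bases before the transcript start and a CRE pentamer 191 bases before it, and the Errfi1 window holds a full CRE 51 bases before its start. With up to 3 mismatches allowed, GRE-like letters stood in 5 of the 15 windows, those of Sgk1, Dusp1 and Errfi1, and in 14.5% of all windows. Sgk1 and Dusp1 were higher and Errfi1 lower by TMM, so the windows with full elements did not share a direction. The sequences follow RefSeq on GRCm38.p6, whereas the counts were made on GRCm39, and a match of letters describes the sequence and not the binding of a factor.

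**Figure D2:**
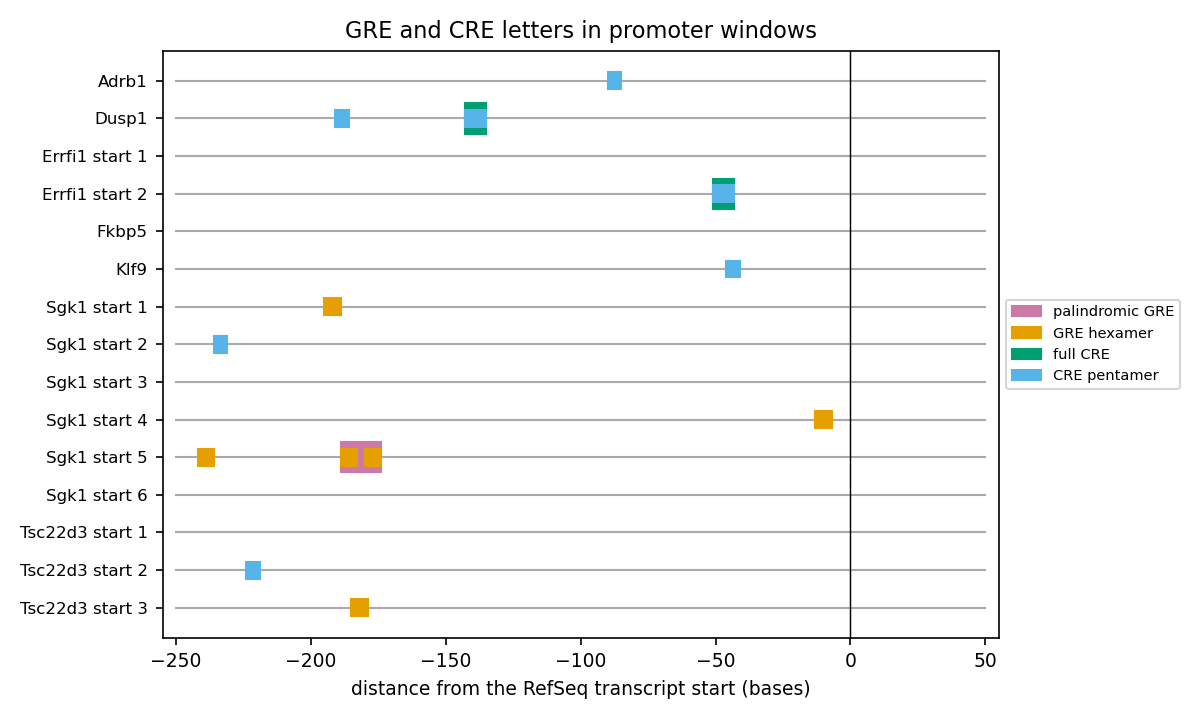
Position of GRE and CRE letters in the 15 promoter windows, as distance in bases from the RefSeq transcript start, with starts of 1 gene numbered by position along the chromosome. The palindromic GRE stands in the fifth Sgk1 window, and full CREs stand in the Dusp1 window and the second Errfi1 window.

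Zbtb16 and Klf9 encode transcription factors that glucocorticoids induce, and they had the lowest ratios of the 9 genes. Zbtb16 encodes PLZF, a zinc finger factor that directs the development of innate-like T cells. It had 157 counts and 2.50 CPM (2.12 to 2.92) with acupuncture, against 625 counts and 6.12 CPM (5.65 to 6.62) with the PD-1 inhibitor alone. The acupuncture library was lower by 2.45-fold (2.06 to 2.94), at percentile 3.03 of tested genes, and Zbtb16 stayed below 1 but short of 2-fold under the epithelial scaling, at a ratio of 0.596. All 8 T cell markers were at least 2-fold higher with acupuncture, and the part of T cells in the ratio of Zbtb16 was not tested. Klf9, a Kruppel-like factor and direct receptor target, had 1777 counts and 28.2 CPM (26.9 to 29.6) with acupuncture, against 4615 counts and 45.2 CPM (43.9 to 46.5) with the PD-1 inhibitor alone. Klf9 was lower by 1.60-fold (1.52 to 1.69), at percentile 9.56 of tested genes, and had a ratio of 0.914 under the epithelial scaling.

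**Figure D3:**
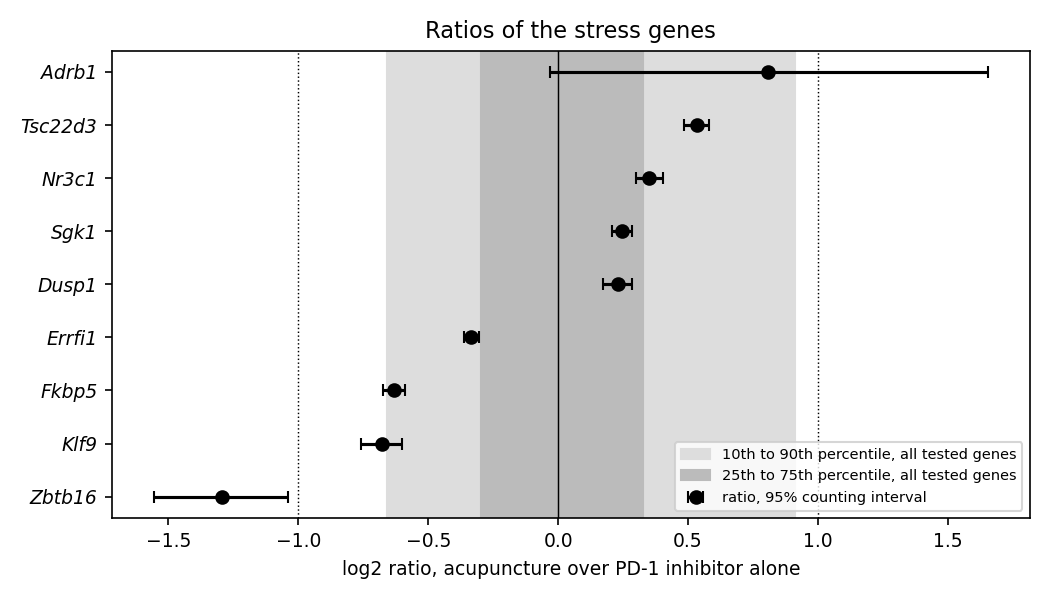
Log2 of the CPM ratio, acupuncture over PD-1 inhibitor alone, for each stress gene with its 95% counting interval (no prior count). Grey bands show the middle of the distribution over 18687 tested genes, and dotted lines mark 2-fold. Zbtb16 alone lies past 2-fold, and the interval of Adrb1, from 27 counts with acupuncture and 25 without it, crosses 0.

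Comparing genes within a library removed the choice of scaling. In the acupuncture library there were 0.985 Fkbp5 counts for each Tsc22d3 count, against 2.21 without acupuncture, a ratio of ratios of 0.447 (0.427 to 0.467). Relative to Nr3c1, the transcript of the receptor itself, Fkbp5 was likewise lower with acupuncture: Nr3c1 had 0.837 counts for each Fkbp5 count there, against 0.424 with the PD-1 inhibitor alone, 1.97-fold more (1.89 to 2.07). Between Tsc22d3 and Zbtb16 the ratio of ratios was 3.55 (2.96 to 4.27), with 41.4 Tsc22d3 counts for each Zbtb16 count with acupuncture, against 11.7 with the PD-1 inhibitor alone. These values show that the genes differed unequally between the libraries, and not which of them kept its level. Of the 36 pairs of the 9 genes, intervals excluded 1 for 30. The 6 others were Fkbp5 with Klf9, at a ratio of ratios of 1.03 (0.972 to 1.10), Sgk1 with Dusp1, at 1.01 (0.966 to 1.06), and Adrb1 with Nr3c1, Tsc22d3, Sgk1 and Dusp1. Counting error alone therefore did not separate Fkbp5 from Klf9 or Sgk1 from Dusp1.

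Per kilobase of exon, taken from GENCODE release M21, the order of levels was nearly the same in both libraries. Errfi1 led with 70.5 CPM per kilobase with acupuncture and 88.9 with the PD-1 inhibitor alone. With acupuncture Sgk1 followed at 38.4, Tsc22d3 at 37.3 and Dusp1 at 30.4 CPM per kilobase, and with the PD-1 inhibitor alone Sgk1 stood at 32.3, Tsc22d3 at 25.8 and Dusp1 at 25.9. Fkbp5 had 15.6 CPM per kilobase with acupuncture and 24.1 with the PD-1 inhibitor alone, and Nr3c1 had 13.0 with acupuncture and 10.2 without it. The lowest 3 levels per kilobase were, with acupuncture, 6.30 for Klf9, 0.472 for Zbtb16 and 0.145 for Adrb1, and with the PD-1 inhibitor alone 10.1 for Klf9, 1.16 for Zbtb16 and 0.0830 for Adrb1. Counting intervals overlapped between Sgk1 and Tsc22d3 with acupuncture, and between Dusp1 and Tsc22d3 and between Nr3c1 and Klf9 with the PD-1 inhibitor alone. Among tested genes, Errfi1 was at percentile 94.8 of levels per kilobase with acupuncture and 95.5 with the PD-1 inhibitor alone, and Adrb1 at 7.78 with acupuncture and 5.94 without it.

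No gene of local glucocorticoid supply or removal was listed in either direction, and none that holds and serves the receptor. Of all tested genes, 14.1% were listed. Of 11 supply and removal genes 8 were tested (median log2 ratio -0.19), and this median mixes both kinds. Hsd11b1, which reactivates inert steroid to corticosterone within tissues, was the only one with an interval wholly above 1, at 12.5 CPM with acupuncture and 10.9 CPM with the PD-1 inhibitor alone, a ratio of 1.15 (1.05 to 1.26). Hsd11b2, which inactivates corticosterone, had the lowest ratio of the list, 1.47-fold lower (1.04 to 2.13) at 46 counts with acupuncture and 110 without it. Both were singled out after their values were seen. H6pd, which feeds the enzyme of Hsd11b1 with cofactor and was the most abundant of the list, had 54.5 CPM with acupuncture and 62.4 CPM with the PD-1 inhibitor alone. Serpina6, Cyp11b1 and Hsd3b1 had 0 counts in both libraries. A floor of 3 counts stands at 0.0477 CPM with acupuncture and 0.0294 CPM with the PD-1 inhibitor alone. Exact Poisson intervals of 0 counts reach higher, to 0.0586 CPM with acupuncture and 0.0361 CPM without it. All 16 genes of the receptor machinery lay between the limits (median 0.03), led by the chaperone Hsp90ab1 at 3086 CPM with acupuncture and 3572 CPM with the PD-1 inhibitor alone. The highest ratio among them, also named after its value was seen, was that of the mineralocorticoid receptor Nr3c2, which binds corticosterone too. It was 1.92-fold higher (1.32 to 2.82), at 64 counts with acupuncture and 54 without it, and passed 2-fold when libraries were scaled to total counts, to totals without the 10 most abundant genes or to epithelial markers.

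Other glucocorticoid-induced genes were found on both sides of the 2-fold limit. Of 32 genes 31 were tested, with 5 listed as higher, 6 as lower and 20 between. Over all tested genes, 9.21% were listed as higher and 4.90% as lower. The median log2 ratio of the 31 was -0.09. It differed from the median of all tested genes by less than the 0.10 by which scaling to total counts moves that median. The highest ratios were those of metabolic genes. Pdk4, which restrains pyruvate oxidation in muscle and fat, was 13.4-fold higher (12.01 to 15.04), at 45.9 CPM with acupuncture and 3.42 CPM with the PD-1 inhibitor alone. Pck1, the enzyme of gluconeogenesis and of glycerol synthesis in fat, was 3.999-fold higher (3.79 to 4.22), and the cell cycle inhibitor Cdkn1c was 3.04-fold higher (2.44 to 3.80). All 8 skeletal muscle markers and 10 of 11 adipocyte markers were listed as higher in the same library. Summed muscle markers stood at 2016 CPM with acupuncture and 175 CPM without acupuncture, and summed adipocyte markers at 2043 CPM with acupuncture and 553 CPM without it, and their part in Pdk4 and Pck1 was not tested.

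Those listed as lower included Mt2, a metallothionein that binds zinc, at 68.5 CPM with acupuncture and 206 CPM with the PD-1 inhibitor alone, 3.002-fold lower (2.90 to 3.10). Its neighbour Mt1, named after its value was seen, was 2.91-fold lower (2.82 to 2.997). Il1r2, the decoy receptor for interleukin 1 that neutrophils carry, was 3.32-fold lower (3.01 to 3.67), at 7.55 CPM with acupuncture and 25.1 CPM without it. Neutrophil markers were lower in the same library, 7 of 8 by the same rule, at a sum of 20.6 CPM with acupuncture and 214 CPM without acupuncture, and their part in Il1r2 was not tested. Hif3a had 2 counts with acupuncture and 25 with the PD-1 inhibitor alone, a ratio of 0.130 (0.0149 to 0.521). Anxa1, the most abundant of the list and a mediator of glucocorticoid action on leukocytes, stood at 591 CPM with acupuncture and 649 CPM with the PD-1 inhibitor alone.

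Genes that the receptor is known to repress, mostly targets of NF-kappa-B and AP-1, also went both ways. Of 19 genes 18 were tested (median -0.38), with 6 listed as higher, 6 as lower and 6 between. The shares over all tested genes were 9.21% higher and 4.90% lower. Ifng, interferon gamma, was 18.1-fold higher (10.6 to 33.0), Cxcl10, a chemokine it induces, was 4.42-fold higher (4.17 to 4.68), and the cytokine Il6 was 2.96-fold higher (2.57 to 3.41). Cxcl2, which attracts neutrophils, was 8.35-fold lower (6.80 to 10.3), Csf2, the growth factor GM-CSF, was 4.88-fold lower (3.24 to 7.65), and Il1a was 3.67-fold lower (3.14 to 4.32). Mmp3, the matrix protease stromelysin and the most abundant of the list, had 135 CPM with acupuncture and 287 CPM with the PD-1 inhibitor alone, 2.13-fold lower (2.08 to 2.18).

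**Figure D4:**
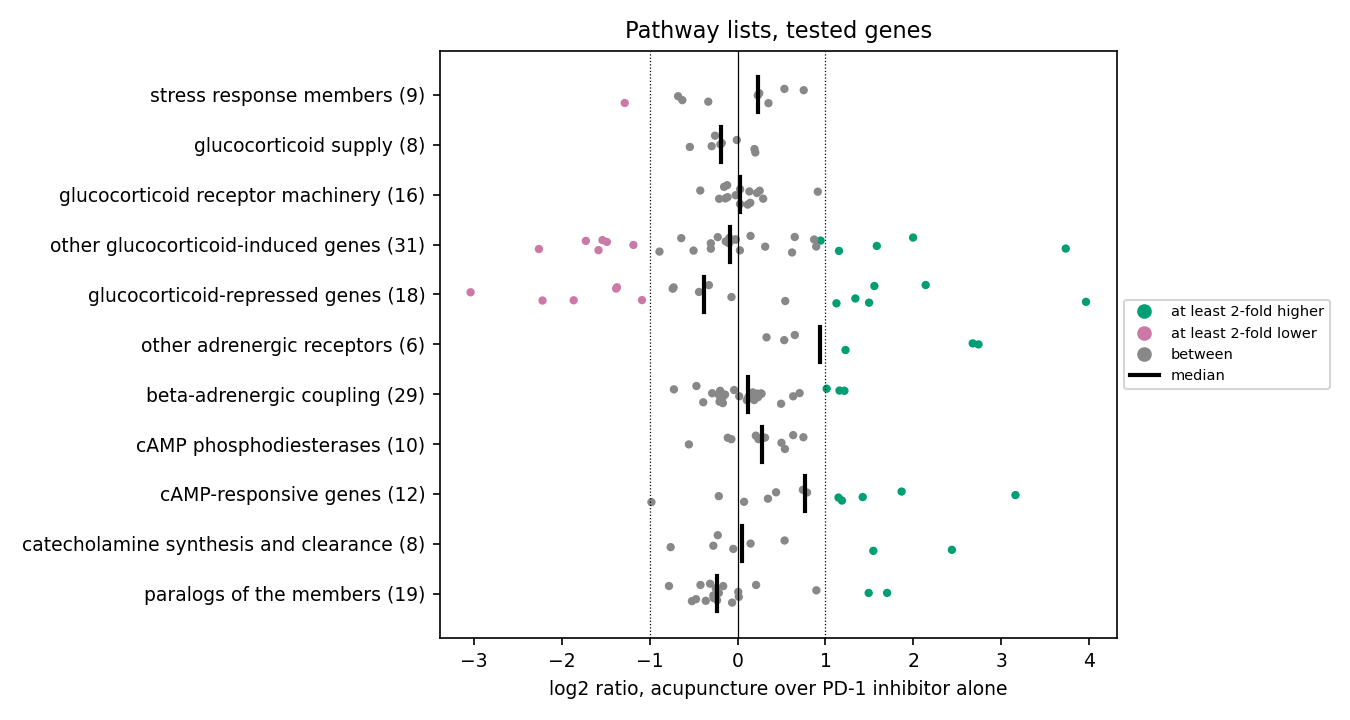
Log2 ratios (prior count 2), acupuncture over PD-1 inhibitor alone, of tested genes in the stress gene set and in 10 related lists, 1 point per gene, with the number tested in brackets. Black bars are medians, dotted lines mark 2-fold, and points near a line are coloured by the fold itself. Adrenergic receptors have the highest median at 0.94.

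On the adrenergic side, the listed receptors were all higher with acupuncture. Of 29 tested coupling genes 3 were listed as higher, a share near the 9.21% of all tested genes. Of 8 receptors besides Adrb1, 6 were tested (median 0.94). Among them 3 were listed as higher and none as lower, where 9.21% and 4.90% of all tested genes were. Adrb3, the receptor that drives lipolysis in fat, had 1475 counts and 23.4 CPM with acupuncture, against 372 counts and 3.64 CPM with the PD-1 inhibitor alone, 6.43-fold higher (5.74 to 7.23). Adra1a, an alpha receptor that acts through calcium, was 7.24-fold higher (4.70 to 11.5), at 116 counts with acupuncture and 26 without it. Adipocyte markers were 3.69-fold higher in sum, and 4 of 5 brown fat markers were listed as higher, with a median log2 ratio of 4.77 for the 5. The brown fat markers summed to 59.2 CPM with acupuncture and 25.1 CPM with the PD-1 inhibitor alone. Of the sum without acupuncture Dio2 held 23.9 CPM. Dio2 was the only one of the 5 with a ratio below 1, at 0.667, so the sums understate the difference of the 4 listed markers. Adra2c had 0 counts in both libraries. The part of fat in the ratios of the adrenergic receptors was not tested.

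Of 30 genes that couple beta receptors to cyclic AMP 29 were tested, with 3 listed as higher, none as lower and a median of 0.12. Of all tested genes, 9.21% were listed as higher and 4.90% as lower. Intervals lay wholly above 1 for 16 coupling genes and wholly below it for 10. The 3 listed genes included the adenylyl cyclases Adcy2 at 2.29-fold (1.60 to 3.28) and Adcy5 at 2.33-fold (2.05 to 2.65). The other was the protein kinase A subunit Prkar2b, abundant in fat, at 2.02-fold (1.94 to 2.11). The stimulatory G protein Gnas, the most abundant, stood at 586 CPM with acupuncture and 603 CPM with the PD-1 inhibitor alone, a ratio of 0.972. None of 10 cyclic AMP phosphodiesterases, which degrade the messenger, was listed (median 0.27), and the most abundant of them, Pde7a, had 70.1 CPM with acupuncture and 75.8 CPM with the PD-1 inhibitor alone.

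Genes that respond to cyclic AMP had a median log2 ratio of 0.77. Of these 12 genes 5 were listed as higher and none as lower, beside 9.21% and 4.90% of all tested genes. Ppargc1a, the coactivator of mitochondrial biogenesis in brown fat and muscle, was 10.5-fold higher (5.81 to 20.5) at 84 counts with acupuncture and 13 without it. Fosb was 3.66-fold higher (3.37 to 3.97), Nr4a1 2.69-fold (2.54 to 2.84), the small GTPase Gem 2.28-fold (2.03 to 2.58) and Fos 2.22-fold (2.13 to 2.31). Fos, Fosb, Egr1 and Junb are also among the 7 handling genes given with Dusp1, so both lists share these genes. Junb, the most abundant of the cyclic AMP list, ran the other way, at 209.7 CPM with acupuncture and 414 CPM with the PD-1 inhibitor alone, a ratio of 0.506 (0.496 to 0.516).

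Marker lists describe the tissue around these genes. Epithelial keratins were abundant in both libraries, with Krt8 at 1059.9 CPM with acupuncture and 1564 CPM with the PD-1 inhibitor alone. Summed lymph node markers, among them Glycam1, were at 179 CPM with acupuncture and 1.59 CPM with the PD-1 inhibitor alone. Macrophage markers were all between the limits, at 2049 CPM in sum with acupuncture and 2525 CPM without it, and so were fibroblast markers, at 2474 CPM with acupuncture and 2201 CPM without it. Endothelial markers had 1 of 7 listed as lower, and Schwann cell markers 2 of 4 as higher, at sums of 164 and 6.85 CPM with acupuncture and 215 and 3.80 CPM with the PD-1 inhibitor alone. The markers listed at 0 counts were Elovl3 of brown fat and Fcmr of B cells, both in the library without acupuncture. What part these tissues had in the levels of the 9 genes was not tested.

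**Figure D5:**
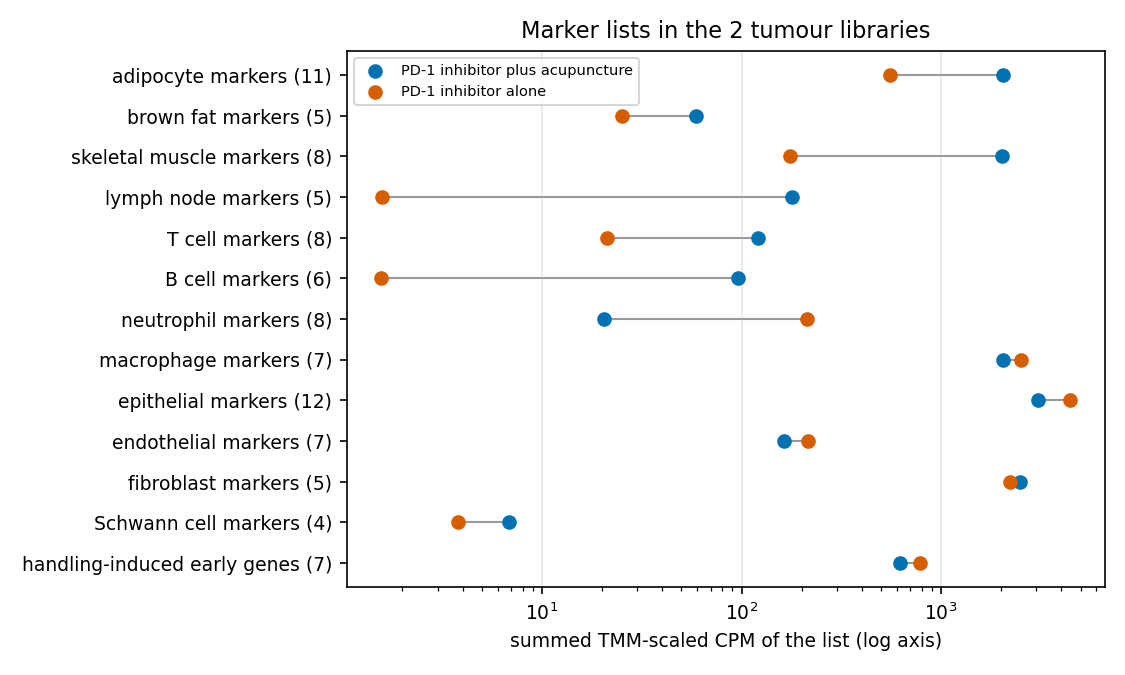
Summed TMM-scaled CPM of each marker list in each library on a log axis, with the number of genes in brackets. Lymph node markers are at 179 CPM with acupuncture and 1.59 CPM without acupuncture, and neutrophil markers at 20.6 CPM with acupuncture and 214 CPM without it.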

How the data were processed

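A table of unnormalised read counts, whole numbers with 1 row per gene symbol, is what the authors deposited, and genome builds GRCm39 and mm39 are named in the submitters' processing notes. Messenger RNA libraries were made from total RNA purified on columns, per the labels' protocols. The sources used here name no aligner, counter or strand setting. Library sizes were multiplied by TMM factors of edgeR 4.0.16 in R 4.3.3 (1.04 with acupuncture, 0.966 with the PD-1 inhibitor alone), computed on the 18687 genes whose counts summed to 20 or more.

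Ratios carry exact Clopper-Pearson 95% intervals of the split of the combined count, levels carry exact Poisson intervals, and log2 ratios a prior count of 2. Intervals between pairs of genes are exact conditional ones where a count was under 200 and log odds ones otherwise. Intervals and the floor of 3 counts cover counting error only, and not variation between tumours. They also take each read as a separate molecule, whereas reads lacking molecular identifiers may repeat a molecule. The calculation was run on simulated Poisson counts without variation between tumours, which checks the arithmetic and not the differences reported here. The genes and the 10 pathway and 13 marker lists were chosen with earlier results of these data known. From each pathway list the text names every listed gene where these are at most 6, otherwise the 3 highest and 3 lowest log2 ratios, and the most abundant gene, except that 2 genes the rule names are not reported here. Size factors of DESeq2 1.42.0, other scalings, limits, prior counts and thinning were alternatives. Calculations used scipy 1.17.1, pandas 2.3.3 and numpy 2.4.6 under Python 3.11.15, and figures matplotlib 3.10.9.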

Additional observations from a re-analysis of the deposited data

How the results depend on the processing

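No paired analysis was possible because each group had 1 library, and leaving out a library leaves no comparison. With the epithelial marker list set to a median of 0, which moves the median of tested genes to 0.54, 2 of the 9 genes (Tsc22d3 and Adrb1) were at least 2-fold higher and 0 lower, and the other glucocorticoid-induced genes had 9 higher and 3 lower. With a 4-fold limit 0 of the 9 genes were lower, and 1 of the other induced genes was higher and 1 lower. The other 33 of 40 counts of these groups over all alternatives stayed within 1.5 times. Total counts moved the median to 0.10. Over 72 recomputed log2 ratios of the 9 genes, only Errfi1, which was not listed, changed sign, and it did so once. Zbtb16, the only listed gene, kept its sign in all 8 of its settings. Of the 72 recomputed values, 50 stayed within the counting interval of their gene and 22 left it. Under total counts the ratio of Nr3c1 was 1.37, above its interval of 1.23 to 1.32. That of Fkbp5 was 0.693, above 0.627 to 0.665. The counting intervals thus do not cover the choice of scaling. For the remaining lists, recomputed after the data were seen, 165 of 180 counts stayed within 1.5 times. Among the exceptions, the epithelial scaling gave 5 adrenergic receptors (3), 6 coupling genes (3) and 4 phosphodiesterases (0) as higher and 3 repressed genes (6) as lower, with the counts as reported in brackets. The 4-fold limit gave 2 and 2 repressed genes (6 and 6), 0 coupling genes (3), 1 cyclic AMP gene (5), 1 catecholamine gene (2) and 0 paralogs (2). Nr3c2 was higher under total counts, under totals without the 10 most abundant genes and under the epithelial scaling (1 against 0). Thinning the deeper library left 1 coupling gene (3), and DESeq2 size factors listed Junb as lower (1 against 0). Depth limits Adrb1, at 27 counts with acupuncture and 25 without it.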

Other observations

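Th, Dbh and Pnmt, which make catecholamines, were at or near 0 counts in both libraries, and those that clear them were measured at higher counts. Of 11 genes 8 were tested, with a median log2 ratio of 0.05. Of the 8, 2 were listed as higher and none as lower, beside 9.21% and 4.90% of all tested genes. Th, the first enzyme of catecholamine synthesis, had 6 counts with acupuncture and 0 with the PD-1 inhibitor alone, and Dbh, which makes noradrenaline, had 0 with acupuncture and 4 without it. Slc22a3, a transporter that takes up catecholamines from outside the cell, was 5.57-fold higher (4.32 to 7.25), and Maob, a monoamine oxidase, was 2.93-fold higher (2.55 to 3.39). The noradrenaline transporter Slc6a2, named after its value was seen, was at 8.85 CPM with acupuncture and 15.05 CPM with the PD-1 inhibitor alone, a ratio of 0.588 (0.533 to 0.649).

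Close relatives of the 9 genes had both higher and lower ratios. Of 20 paralogs 19 were tested, with a median of -0.23. Of the 19, 2 were listed as higher and none as lower, where 9.21% and 4.90% of all tested genes were. Sgk2 was 2.84-fold higher (2.35 to 3.44), where Sgk1 was 1.19-fold higher. Zbtb32, a zinc finger factor of lymphocytes, was 3.31-fold higher (2.60 to 4.22), where Zbtb16 was 2.45-fold lower. Dusp6, the ERK phosphatase and the most abundant paralog, stood at 233 CPM with acupuncture and 299 CPM with the PD-1 inhibitor alone.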
